A study of Drosophila melanogaster with 6 samples.

Results

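Insects build the long hydrocarbons that waterproof their cuticle and serve as sex pheromones from fatty acids. Acetyl-CoA carboxylase makes malonyl-CoA, fatty acid synthases join it into fatty acyl chains, desaturases place double bonds, elongases lengthen the chains, and a reductase and a P450 enzyme of the CYP4G family turn the acyl-CoA into a hydrocarbon. In the fruit fly the late steps are carried out in oenocytes, secretory cells under the cuticle of the abdomen, while the fat body makes most of the storage lipid. The level of 9 genes of this pathway was compared here between whole young and old flies.

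The genes were picked by name, and all 9 were on the array with 1 probe set each, of 13243 gene labels and 18769 probe sets tested. They are ACC, FASN1 (CG3523), FASN2 (CG3524), Desat1 (also written desat1), Desat2, Fad2 (also called desatF), eloF, bond and Cyp4g1. Of these, 5 stand in the table under the name first looked up, and 4 were found through the synonyms of RefSeq. FASN1, first looked up as CG3523, is also a name given and stands in the table as such. In RefSeq, FASN1 and FASN2 are neighbours on chromosome arm 2L with only 2 small nuclear RNA genes starting between them, and Desat1 and Desat2 are close neighbours on arm 3R.

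The flies belonged to the isogenic stock y(1), w67c23(2) according to the methods, and both age groups shared this genotype, the food and a temperature of 20 °C. The young age group was 3 days old and the old age group 45 days old, with 3 pooled samples per group. Per the labels, each sample held 100 females and 100 males of mixed sex, although the results text of the study speaks of females. Values are log2 signals of a GeneChip array after GCRMA, a normalization whose background term takes the base content of each probe into account. A step of 1 unit is 2-fold. Values near 2 form the low end of the scale and stand for no detected signal. Samples are called Young1 to Young3 and Old4 to Old6 after the columns of the table, because the labels number the old samples differently.

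Most male marker genes did not show the male share that the labels give. Genes expressed in the testis, such as dj, Mst87F and the protamine genes, lay between 1.84 and 2.48 in all samples, with 13 of 13 probe sets at the low end of the scale. Of 14 probe sets for male accessory gland and ejaculatory duct genes, 12 were under log2 3 in every sample, among them that of the sex peptide gene SP at 2.34 to 2.37. The exceptions were Acp95EF, at 12.92 to 13.00, and the esterase gene Est-6, at 11.64 to 13.27, which was called lower in old flies (fold difference -2.29, FDR 0.0188, limma). Of the genes listed for dosage compensation, msl-2 lay between 7.29 and 7.83 in all samples, and roX1 and roX2 were not matched to a probe set. The yolk protein genes of the female fat body were high in every sample, with Yp1 between 14.34 and 14.66, while a further probe set, shared by Yp1 and CG9263, lay at 2.30 to 2.35. The low testis and accessory gland values go against the mixed label in both age groups, while Acp95EF, Est-6 and msl-2 were detected. The yolk protein levels cannot tell a mixed pool from a female one. The marker levels bear on Fad2 and eloF, whose enzymes are known to act in females, and on bond, which is known from males. Eggshell genes differed widely among the old samples, with a median over 9 genes of 13.8, 14.0 and 13.9 in the young samples and of 12.9, 10.4 and 2.06 in Old4, Old5 and Old6.

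**Figure D1:**
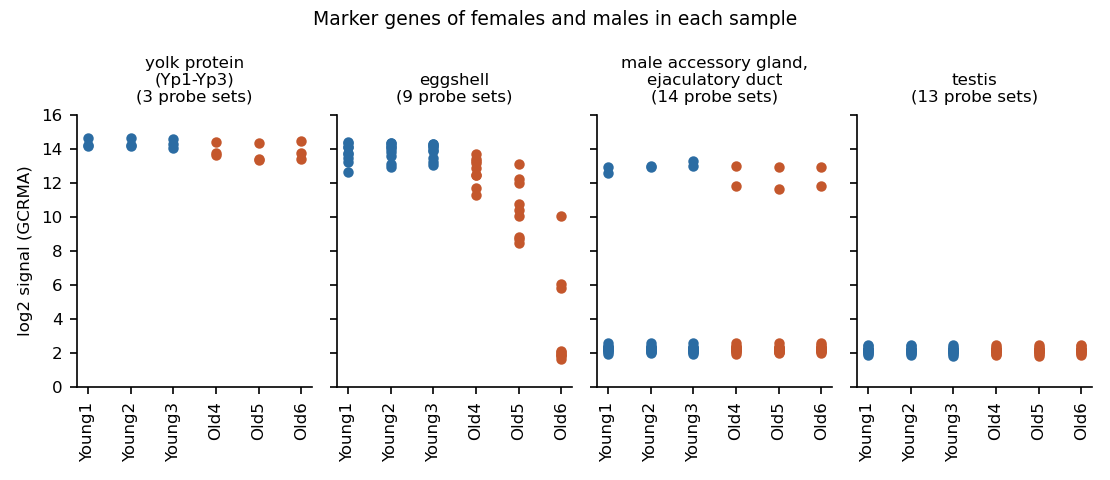
Log2 signal (vertical axis) of female and male marker probe sets in each of the 6 samples (horizontal axis), 1 point per probe set, with young samples in blue and old samples in orange. The points of Yp1 to Yp3 stay high (a probe set shared by Yp1 and CG9263, at 2.30 to 2.35, is not drawn), eggshell points scatter in the old samples, and the 13 testis points lie between 1.84 and 2.48 in all samples.

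The age groups were set against each other, old minus young, with 1 limma model over all 18769 probe sets. Following the methods, a call needed more than a 2-fold difference, p below 0.05 and, after Benjamini-Hochberg adjustment, an FDR below 0.15. None of the 9 genes was called, against 6.41% of all probe sets tested and 12.6% of those with a mean of log2 6 or more in at least 1 age group. Without the fold criterion, 3 of the 9 genes passed at p and FDR, all lower in old flies (FASN1, Fad2 and bond). Of all probe sets 20.8% passed in either direction and 9.17% as lower, and of the brighter ones 43.3% passed in either direction, so 3 of 9 was not read as a result about these genes. The values of the 2 age groups did not overlap in 4 of the 9 genes, against 28.7% of all probe sets and 54.5% of the brighter ones. The median difference of the 9 genes was -0.05 on the log2 scale, beside 8.17e-04 over all probe sets. For 8 of the 9 genes the 95% confidence interval of the difference lay within a 2-fold change in either direction, and bond was the exception. Among these 8, Desat2 lay at the low end of the scale, so its narrow interval says nothing about a change. Desat2 is also not among the brighter probe sets whose shares are given above. In whole flies, fewer cells of a type and less RNA per cell cannot be told apart.

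**Figure D2:**
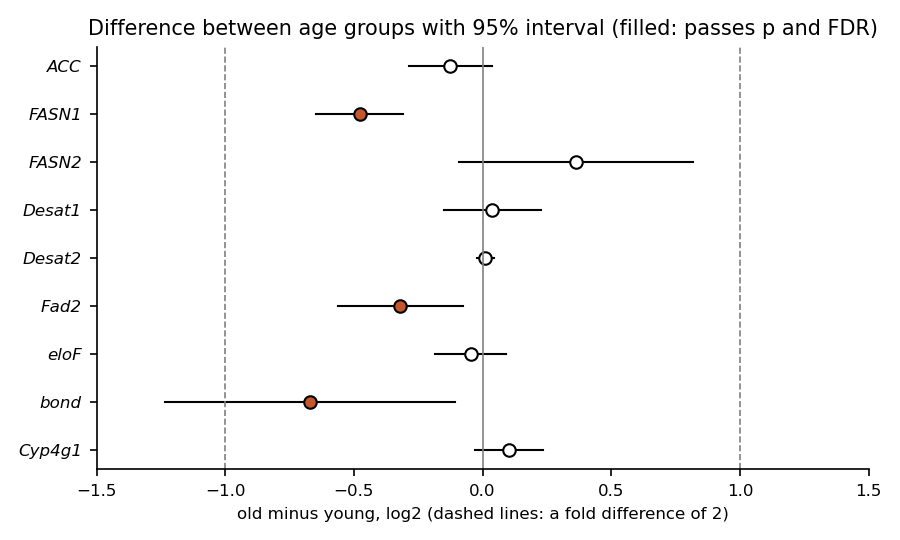
Old minus young difference on the log2 scale (horizontal axis) for the 9 genes (vertical axis), with 95% confidence intervals from limma and dashed lines at a fold difference of 2. Filled points passed p and FDR but not the fold criterion (FASN1, Fad2 and bond), and the interval of bond alone crosses a dashed line.

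In the first steps of the pathway FASN1 was lower in old flies, while ACC and FASN2 did not pass the test. ACC, the carboxylase that supplies malonyl-CoA, stood at 12.33, 12.14 and 12.34 in the young samples (Young1 to Young3, in that order here and below) and at 12.15, 12.11 and 12.18 in the old samples (Old4 to Old6). The groups overlapped through Young2, and the difference of -0.13 ± 0.06 (SE) did not pass (FDR 0.344, limma). Without Young2 it was -0.19 with an FDR of 0.0365, so this array decides whether ACC passes p and FDR.

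FASN1, the broadly expressed fatty acid synthase of the fat body, had the smallest p of the 9 genes. It was at 13.80, 13.63 and 13.75 in the young samples and at 13.18, 13.23 and 13.34 in the old samples. Every old sample was below every young sample, with group means of 13.73 ± 0.09 and 13.25 ± 0.09 (SD, n = 3). The fold difference was -1.39 (log2 -0.48 ± 0.06 SE, FDR 0.0131, limma), with a 95% interval of -0.65 to -0.31. It stayed past p and FDR whichever sample was left out, with an FDR between 0.0240 and 0.0593. Of 9 probe sets listed for fat body genes, 1 was called higher and 2 lower, beside 3.45% and 2.96% of all probe sets. Of the brighter probe sets 12.6% were called in either direction. The fat body gene called higher was Lip4 (fold difference 3.80, FDR 0.0933, limma). The lower ones were the larval fat body genes Fbp2 and Fbp1, which lay between 1.98 and 2.77 in the old samples. Lsp2, a larval gene too, differed by -2.20 (FDR 0.265, limma) and Ilp6 by 0.42 (FDR 0.518, limma), both without a call. A probe set labelled CG5335 and Fbp1 carries another gene identifier than the called Fbp1 probe set. It lay between 12.72 and 13.23 in all samples and differed by 0.38 (FDR 0.0145, limma), so it was not read as Fbp1. The brighter probe set for Adh, shared with Adhr, differed by 0.18 (FDR 0.134, limma) and the lipid carrier gene Rfabg by -0.08 (FDR 0.957, limma). The part of the fat body genes in the difference of FASN1 was not tested.

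FASN2, the neighbouring synthase, is known from oenocytes, where it contributes to methyl-branched hydrocarbons. It stood at 10.94, 10.71 and 10.37 in the young and at 10.86, 11.04 and 11.21 in the old samples. The groups overlapped, since Young1 lay above Old4, and the difference of 0.36 ± 0.17 (SE) did not pass (FDR 0.325, limma). The neighbours thus had estimates of opposite sign, but with a 95% interval of -0.09 to 0.82 no sign can be given for FASN2. The log2 difference between FASN1 and FASN2 within a sample was 2.86, 2.92 and 3.37 in the young samples and 2.31, 2.19 and 2.13 in the old samples. Its mean changed by -0.84 from young to old samples. This is a description, since the pair, 1 of 3 examined, was chosen after the values were seen. An exact permutation test over the samples gave p = 0.1, the smallest p it can give here, so it cannot decide.

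Desaturases place the double bonds that distinguish many fly pheromones. Desat1, the delta-9 desaturase used by both sexes, was at 14.14, 14.14 and 13.93 in the young and at 14.07, 14.06 and 14.19 in the old samples. The groups overlapped, and the difference was 0.04 with a 95% interval of -0.15 to 0.23 (limma). Its sign turned without Young3 (-0.03) or without Old6 (-3.02e-03), so no direction can be given.

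Desat2, a second delta-9 desaturase, is known for the female hydrocarbons of African strains and is inactive in many strains from elsewhere. It lay between 2.20 and 2.24 in all samples. This is the low end of the scale, so no level of Desat2 was detected at either age, and its difference of 0.01 has no meaning as a change.

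Fad2, or desatF, places the second double bond of the female dienes, the courtship pheromones of females. Its values were 12.60, 12.92 and 12.84 in the young and 12.39, 12.49 and 12.51 in the old samples. All old samples were lower, although Young1 lay close to Old6. The fold difference was -1.25 (log2 -0.32 ± 0.09 SE, FDR 0.109, limma), with an interval of -0.56 to -0.08. The gene passed p and FDR in the full set and without Young1 (FDR 0.0188), but with any other sample left out the FDR lay between 0.233 and 0.274. The yolk protein genes Yp1 (its brighter probe set), Yp2 and Yp3, read from the same pools, differed by -0.21, -0.69 and -0.60 between the groups. They passed p and FDR (FDR 0.0385, 0.0128 and 0.0598, limma) but not the fold criterion. The part of the yolk protein differences in that of Fad2 was not tested.

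Elongases lengthen the chains before they become hydrocarbons. The gene eloF, whose enzyme elongates the female dienes, was at 13.01, 13.18 and 13.01 in the young and at 13.02, 13.01 and 13.04 in the old samples. The groups overlapped, with a difference of -0.05 and an interval of -0.18 to 0.09 (FDR 0.912, limma), well within a 2-fold change. Its sign turned without Young2, to 0.01, while with weights for the quality of each array it was -0.15 and passed p and FDR (FDR 0.109, limma).

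The elongase gene bond had the largest difference of the 9 genes. Its product makes very long chains and is known from a pheromone of the male ejaculatory bulb and from dividing spermatocytes. It was at 10.92, 11.22 and 11.69 in the young and at 10.48, 10.76 and 10.58 in the old samples. The groups did not overlap, but the young samples were wide apart and Young3 was the highest. The fold difference was -1.59 (log2 -0.67 ± 0.22 SE, FDR 0.141, limma), and the interval of -1.23 to -0.11 does not exclude a 2-fold change. Without Young3 the difference was -0.46 (FDR 0.151), without Young1 -0.85 (FDR 0.0640), and with any other sample left out the FDR was between 0.243 and 0.337. With values centred on the array median the FDR was 0.155, which misses the threshold. This signal was present in samples whose testis markers lay at the low end of the scale.

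Cyp4g1 encodes the oenocyte P450 that forms the hydrocarbon in the last step. It stood at 14.38, 14.42 and 14.24 in the young and at 14.45, 14.45 and 14.44 in the old samples. The groups just failed to overlap, and the difference of 0.10 ± 0.05 (SE) did not pass (FDR 0.348, limma). Desat1 and Cyp4g1 lie close to the highest value of the table, 15.05, and whether the upper end of the scale narrows their differences was not tested. Of 7 probe sets for genes known from oenocytes none was called. Hnf4, a factor of oenocytes and fat body, differed by 0.28 (FDR 0.0313, limma) and CG1444, a reductase of the elongation cycle, by -0.23 (FDR 0.0690, limma), both past p and FDR but not the fold criterion. The brightest probe set of the factor gene svp differed by 0.16, the fatty acid transporter gene Fatp by 0.06, and Cpr, whose product passes electrons to P450 enzymes, by 0.02, and none of these passed.

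**Figure D3:**
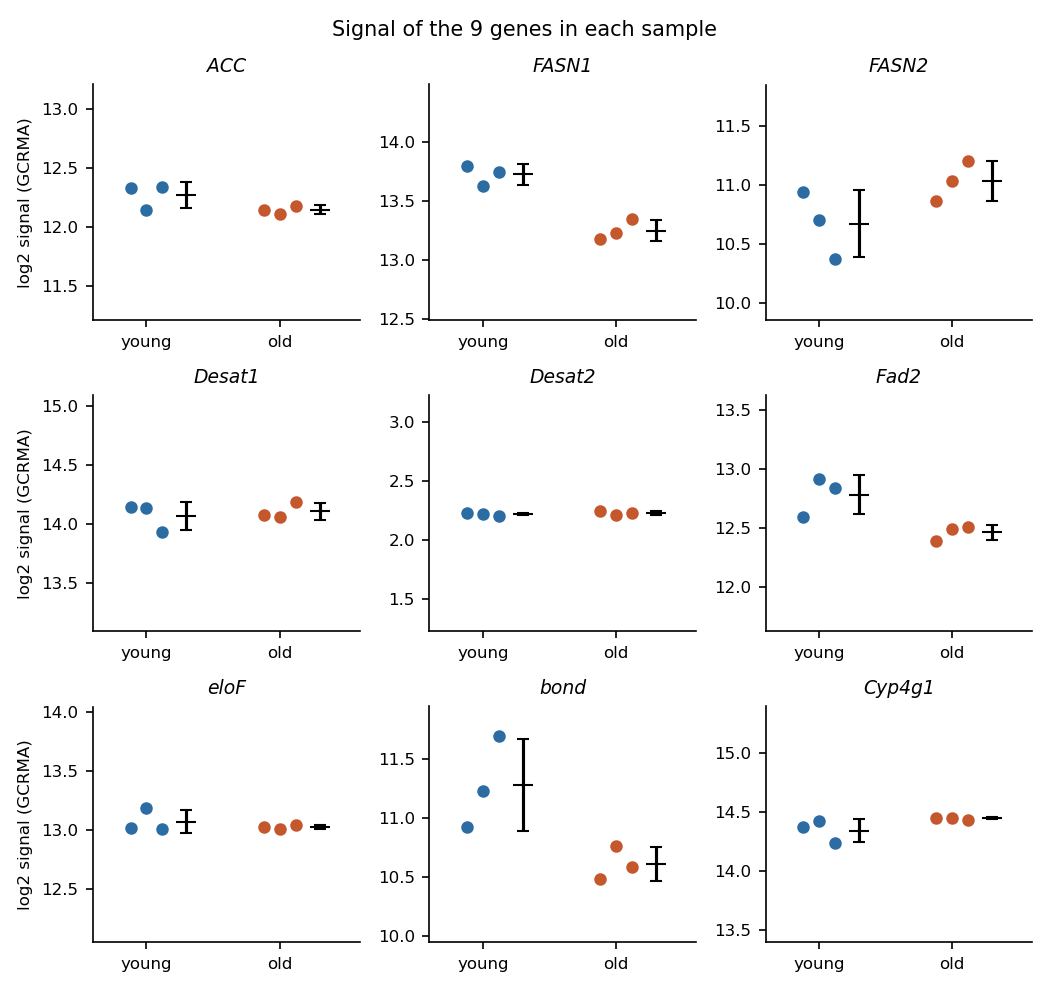
Log2 signal (vertical axis, 2 units high in every panel but centred on each gene) of the 9 genes in the 3 young samples (blue) and the 3 old samples (orange), each point a sample, with the mean and SD beside them. FASN1, Fad2 and bond lie lower in all old samples, and Desat2 stays near 2.2.

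For most of the 9 genes the young samples were more scattered than the old ones. The SD was larger among young than among old samples in 8 of the 9 genes, and in 69.3% of all probe sets with a mean of log2 6 or more. Over all probe sets the order was the other way by correlation, with r between 0.997 and 0.998 for pairs of young samples and between 0.993 and 0.997 for pairs of old samples, and the eggshell genes were scattered among old samples only. Young3 was the lowest young sample in 5 of the 9 genes, FASN2, Desat1, Cyp4g1, eloF and Desat2, and the highest in 2, ACC and bond. For eloF the margin was small (13.007 against 13.015 in Young1), as for ACC (12.342 against 12.328 in Young1), and Desat2 was not detected. The share over all probe sets was not taken, so these counts were not read as a result. In genes of the larval fat body Young3 was the highest young sample. The larval serum protein gene Lsp2 was at 13.60 in Young3, against 10.80 in Young1 and 11.14 in Young2, and Fbp2 was at 10.56 against 8.48 and 8.09. Over the whole fat body list of 9 probe sets the sample median was 8.48, 9.14 and 10.6 in the young and 10.5, 8.71 and 9.53 in the old samples. Larval fat body cells are known to persist in newly eclosed flies. Their part in the values of Young3 was not tested.

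Some other genes in or near the pathway were called. Lists of such genes covered 65 genes with 72 probe sets. Of the probe sets, 6 were called higher and 10 lower, beside 3.45% and 2.96% of all probe sets. Of those with a mean of log2 6 or more in at least 1 age group, 12.6% were called in either direction. These shares also stand beside the counts of the single lists below, which were not read as results. The median difference of the 72 probe sets was 7.45e-04, close to that of all probe sets, and 19 of the 72 were under log2 4 in every sample. The higher calls include Snmp1 and Cyp4g15, known from sensory neurons and the nervous system, and Lpin of the storage fat pathway. Of the 16 calls, 10 held in all fits with a sample left out, 4 higher and 6 lower. These lists were scored with no set test.

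**Figure D4:**
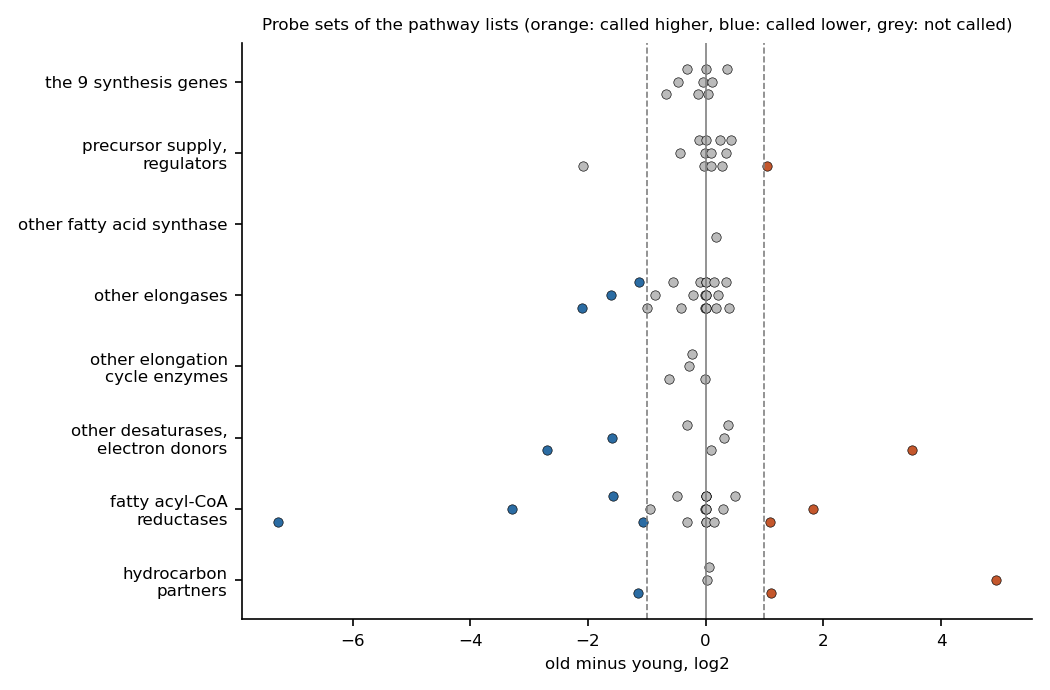
Old minus young difference on the log2 scale (horizontal axis) of each probe set, by pathway list (vertical axis), in orange where called higher, blue where called lower and grey where not called, with dashed lines at a fold difference of 2. All 9 synthesis genes are grey, while the desaturase, elongase and reductase lists hold calls between -7.26 and 3.50.

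Among the 7 other desaturases and electron donors, 1 was called higher and 2 lower. CG9743, a predicted acyl-CoA desaturase, was at 8.09, 8.44 and 8.77 in the young and at 11.78, 11.79 and 12.25 in the old samples. It rose without overlap, with a fold difference of 11.3 (FDR 0.00254, limma). CG9747, a predicted desaturase of the same family, was at 9.38, 8.999 and 9.28 in the young and at 7.20, 6.32 and 6.05 in the old samples. It fell, with a fold difference of -6.48 (FDR 0.00987, limma). CG8630, another predicted desaturase, fell with a fold difference of -3.01 (FDR 0.0919, limma), a call that was lost in 4 of the 6 fits with a sample left out, with FDR values up to 0.258. These relatives of Desat1 differed between the age groups in both directions, while the values of Desat1 itself overlapped.

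Of 18 other elongase genes with 22 probe sets, 3 were called lower and none higher. CG5326 was at 11.56, 11.80 and 11.86 in the young and at 9.63, 9.37 and 9.93 in the old samples. It fell without overlap (fold difference -4.27, FDR 0.00366, limma), while its 2 other probe sets lay at the low end of the scale. CG6660 was at 10.06, 10.22 and 10.22 in the young and at 8.45, 9.06 and 8.17 in the old samples, and it fell by a fold difference of -3.04 (FDR 0.0176, limma). CG9458 had a fold difference of -2.20 (FDR 0.103, limma), a call that held in only 1 of the 6 fits with a sample left out.

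Fatty acyl-CoA reductases make the alcohols and aldehydes that lie between an acyl-CoA and a hydrocarbon or a wax. Of 17 such genes with 20 probe sets, 2 probe sets were called higher and 4 lower. The probe set shared by the neighbours CG10096 and CG10097 was at 9.66, 9.63 and 10.12 in the young and at 3.01, 2.30 and 2.31 in the old samples. The old samples reached the low end of the scale. The fold difference was -154 (FDR 7.39e-04, limma), and it was -14.0 with values under log2 6 raised to 6. CG8303 was at 11.09, 10.91 and 11.39 in the young and at 8.43, 7.46 and 7.65 in the old samples. It fell without overlap, with a fold difference of -9.75 (FDR 0.00495, limma).

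Other reductases rose. CG17560 was at 11.98, 11.86 and 11.93 in the young and at 12.98, 12.94 and 13.13 in the old samples. It rose by a fold difference of 2.14 (FDR 0.00182, limma), and the call held whichever sample was left out. CG5065 had a fold difference of 3.54 (FDR 0.0197, limma), which shrank to 1.02 with values under log2 6 raised to 6. Further probe sets were called lower with less stable calls. CG1441 had a fold difference of -2.98 (FDR 0.108, limma), and its call held in only 1 of the 6 fits with a sample left out. In 1 of its 3 probe sets CG30427 had a fold difference of -2.09 (FDR 0.0376, limma) at a low level, between 3.31 and 4.95. Its call held in 4 of the 6 fits and was lost with values under log2 4 raised to 4.

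In the list of hydrocarbon formation partners, which also holds genes known from neurons, 2 of 5 genes were called higher and 1 lower. CG9990, now named snu, encodes a transporter needed for the lipid barrier of the cuticle. It was at 11.84, 11.76 and 11.74 in the young and at 10.70, 10.60 and 10.59 in the old samples. The gene fell with a fold difference of -2.22 (FDR 8.02e-04, limma), and every sample could be left out without loss of the call. Cyp4g15, the second CYP4G gene, which is expressed in the nervous system, had a fold difference of 2.15 (FDR 0.0838, limma), and its call held in 2 of the 6 fits with a sample left out. With values under log2 6 raised to 6 its fold difference was 1.22 and the call was lost. Snmp1, a membrane protein of pheromone-sensing neurons, was at 5.39, 5.22 and 4.97 in the young and at 9.74, 10.81 and 9.83 in the old samples. It rose with a fold difference of 30.6 (FDR 0.00259, limma), which was 17.5 with values under log2 6 raised to 6.

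Of 13 genes for precursor supply and regulators, 1 was called. Lpin, which encodes a phosphatidate phosphatase of the storage fat pathway, was at 10.97, 10.32 and 10.56 in the young and at 11.78, 11.59 and 11.62 in the old samples. It rose with a fold difference of 2.07 (FDR 0.0264, limma), just past the fold criterion, and without Young2 the log2 difference was 0.90 and without Old4 0.99, both under it. SREBP, the transcription factor that drives fatty acid synthesis genes in flies, differed by 0.43 (FDR 0.00846, limma), and SCAP, which escorts it, by 0.25 (FDR 0.113, limma). Both were under the fold criterion. Malic enzyme (Men), a source of reducing power, differed by -0.43 (FDR 0.0199, limma) and the acetyl-CoA synthetase gene AcCoAS by 0.35 (FDR 0.0658, limma).

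The remaining enzymes gave no call. FASN3, the third fatty acid synthase gene, had means of 13.58 in young and 13.75 in old flies. The difference of 0.17 (FDR 0.135, limma) passed p and FDR but not the fold criterion. In the elongation cycle, where a reductase, a dehydratase and a second reductase complete each round, none of 4 genes was called. The dehydratase gene CG9267, now named Hacd2, had the largest difference of that list, -0.63 (FDR 0.00903, limma), and Sc2 differed by -0.01.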

How the data were processed

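Whole-fly RNA of 3 young and 3 old samples was measured on GeneChip Drosophila Genome arrays. The authors amplified total RNA and normalized the scans with GCRMA in Partek Genomics Suite 6.5, and the deposited table holds their log2 values for 18952 probe sets, with no genome build or annotation release given in the sources used here. Scanner files were not used here, and other background corrections were not tried. The number of arrays limits the precision. Nothing ties the number of an old column to that of a label, so those columns were used by group only. The methods call the 3 samples of a group biological replicates, and each replicate had bottles of its own. As the methods are worded, the young and old flies of a replicate may come from the same bottles. Such pairs were not in the model. No batch is given in the sources used here.

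After 183 control probe sets were left out, a linear model with age group as its only term was fitted with limma 3.58.1 in R 4.3.3, which stands in for the SAM and t-test of the methods. The step was tested on simulated data with changes larger than the fold criterion. That test says nothing about differences as small as those of the 9 genes. Fold differences are 2 to the power of the difference of the group means and negative where old flies were lower. Named are all 9 genes, and in each pathway list every called gene or, with none, that with the largest difference of its brightest probe set. Other named genes were chosen after their values were seen. A list of similar patterns was planned for called members only, and none was called. Members and lists were chosen with earlier results of these data known. Symbols were matched to RefSeq (Release 6 assembly) for names and neighbours only, and protein and promoter sequences were not used here.

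Alternatives were the methods' t-test with equal variances, a trended and robust variance prior, an FDR under 0.05, array weights, median centring, a second quantile normalization, a group mean of at least log2 6, values under log2 4 or 6 raised to that value (probe sets at that value in every sample left out), each sample left out, and probe sets averaged by gene.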

Additional observations from a re-analysis of the deposited data

How the results depend on the processing

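None of the 9 genes was called higher or lower under any alternative run. The count of genes lower at p and FDR without the fold criterion was 3, and it was 1 with the methods' t-test or an FDR under 0.05, 2 with median centring or a second quantile normalization (bond at FDR 0.155 and 0.159), 4 with array weights, and between 1 and 3 with a sample left out. FASN1 passed in each of these fits. With array weights, 1 gene passed p and FDR as higher (FASN2, 0.30, FDR 0.145, limma), eloF passed as lower, and the sign of Desat1 turned, to -0.031. With a sample left out, the difference ranged from -0.031 to 0.072 for Desat1 and from -0.077 to 0.011 for eloF. The causes were not tested. The pathway lists had 10 probe sets called lower, and between 6 and 9 with a sample left out, fewest without Old5. No paired analysis was possible because the old columns carry other numbers than the labels. Differences under 2-fold at the low end of the scale could not be judged, since values there stand for no detected signal.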

Other observations

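Some pathway genes that were not called differed in single samples, and they are given as values chosen after they were seen. The sugar-responsive regulator gene sug was at 10.20, 10.40 and 9.73 in the young samples, at 9.66 and 9.67 in Old4 and Old5, and at 4.72 in Old6. The predicted fatty acyl-CoA reductase gene CG13091 was at 5.21, 6.52 and 6.91 in the young samples and at 2.93, 8.82 and 5.94 in Old4, Old5 and Old6.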
